A study of Mus musculus with 3 samples.

Results

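Of the 4706 cells in the library of primordial germ cells at embryonic day 12.5 (E12.5), 634 held RNA of both Lefty1 and Lefty2, out of 19144 cells in the whole series. They were chosen as the E12.5 cells with at least 1 unique molecular identifier (UMI, a tag that marks a single RNA molecule) of each gene, which made up 13.5% of the library (12.5 to 14.5%). They were compared across all measured genes with the 3450 E12.5 cells in which both genes were at 0. The 250 cells with Lefty1 alone and the 372 with Lefty2 alone stood outside both groups. Primordial germ cells are the precursors of eggs and sperm. Per the labels, the series holds female cells from fetal ovaries of C57BL/6 mice at embryonic day 12.5, 14.5 or 16.5, sorted as Oct4-EGFP-positive, so that every group carried the EGFP reporter of Oct4 (Pou5f1). Each age was 1 droplet library of RNA 3' ends with no replicate, and the number of fetuses behind it is not given in the sources used here. All groups below are cells of the same E12.5 library, so no test between them was possible, and cells were not used as replicates. Levels are sums of UMIs over the cells of a group, per 1000000 UMIs of that group (CPM). Ranges in brackets are exact 95% intervals, Poisson for levels and ratios and binomial for shares of cells, and cover counting error only. In such sums, fewer cells with a transcript and less transcript per cell cannot be told apart, so shares of cells are given beside levels where it matters.

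NODAL is a secreted ligand of the TGF-beta family that binds activin receptors together with the co-receptor CRIPTO, the product of Tdgf1, and signals through SMAD2 and SMAD3. Lefty1 and Lefty2 encode secreted inhibitors that NODAL signalling itself switches on. In the fetal gonad the pathway is known from male germ cells, which switch on Nodal, Tdgf1, Lefty1 and Lefty2 for a short time around sex determination, while germ cells of the fetal ovary respond to BMP and retinoic acid signals and enter meiosis.

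The DNA just upstream of 3 genes of this pathway is shown because their RNA was higher in the cells with the Lefty pair. Each sequence is the 250 bases before the gene's start in RefSeq (build GRCm38.p6), written 5' to 3' on the gene's strand, with capitals for CAGAC, a SMAD-binding motif. The regions are chr10:61417722-61417971 on the plus strand for Nodal, chr9:110946159-110946408 on the minus strand for Tdgf1 and chr11:84525535-84525784 on the minus strand for Lhx1, which encodes a LIM homeodomain factor.
Nodal: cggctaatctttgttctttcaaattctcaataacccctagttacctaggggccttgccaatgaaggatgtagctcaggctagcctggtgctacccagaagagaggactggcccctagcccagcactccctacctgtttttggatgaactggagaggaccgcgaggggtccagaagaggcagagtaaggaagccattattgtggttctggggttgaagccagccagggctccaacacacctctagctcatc
Tdgf1: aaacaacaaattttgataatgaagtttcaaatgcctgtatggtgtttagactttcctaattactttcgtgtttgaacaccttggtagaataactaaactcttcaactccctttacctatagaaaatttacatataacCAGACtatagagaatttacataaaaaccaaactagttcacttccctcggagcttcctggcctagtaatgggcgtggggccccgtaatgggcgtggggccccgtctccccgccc
Lhx1: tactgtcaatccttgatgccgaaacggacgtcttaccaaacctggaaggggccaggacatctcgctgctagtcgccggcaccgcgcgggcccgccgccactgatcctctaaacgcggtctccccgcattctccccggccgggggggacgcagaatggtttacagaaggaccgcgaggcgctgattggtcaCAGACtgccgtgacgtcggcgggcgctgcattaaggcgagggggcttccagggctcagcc
CAGAC, searched on both strands, had 0 matches upstream of Nodal and 1 match each upstream of Tdgf1 and Lhx1, and 42.2% of all 32851 RefSeq promoters hold it in a window of this length. GGCGCC, a GC-rich SMAD motif (9.59% of promoters), and the FOXH1 motifs AATCCACA and AATACACA (1.61%) had 0 matches in these 3 windows. Lefty1, Lefty2 and Id1 were not in the promoter table.

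The pair of genes that chose the cells was mostly low in each cell. Lefty1 had a median of 3 UMIs per cell and at most 21, and Lefty2 a median of 5 and at most 22. The cells just inside the rule, with 1 UMI of each gene, were 39 of the 634. Just outside it stood 463 cells with 1 UMI of 1 of the genes only, and 159 cells had 2 or more UMIs of that 1 gene. The 3' ends of Lefty1 and Lefty2 are partly alike: of the 98-base windows in the last 500 bases, 8.93% of those of Lefty1 occur in Lefty2 and 8.79% of those of Lefty2 in Lefty1, so a small part of their reads could have been assigned to neither. The selecting genes are left out of all counts below.

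Such cells were found at E12.5 and in neither later library. At E14.5, 0 of 9075 cells held both genes, and at E16.5, 0 of 5363 did. A limit of 3 cells allows shares of up to 0.0331% and 0.0559%, and the exact 95% intervals reach 0.0406% and 0.0688%. Lefty1 alone was found in 43 cells at E14.5 and 0 at E16.5, and Lefty2 alone in 13 and 3. Cells of the later libraries were shallower, with medians of 10960 and 12659 UMIs against 26691.5 at E12.5, and age and library cannot be told apart. Within E12.5, the cells with both genes had a median of 29048.5 UMIs (6834 to 46753) and those with neither 26244 (5592 to 46238), while the mitochondrial share was 2.81% and 2.87% of UMIs. The groups' depths overlapped almost wholly, and that of the cells with both genes was higher by median.

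The sex on the label of the library, female, was checked first. Of the cells with both Lefty genes, 80.1% held a Y-linked UMI (76.8 to 83.2%, 508 of 634), from Eif2s3y, Uba1y, Ddx3y, Zfy1 and Uty, the 5 of 10 listed Y-linked genes that the table holds. The share was 20.7% among cells with Lefty2 alone (16.7 to 25.2%), 6.80% among cells with Lefty1 alone (4.01 to 10.7%) and 1.88% among cells with neither gene (1.46 to 2.40%, 65 of 3450, of which 56 had a single such UMI). With every cell thinned to 10000 UMIs, leaving out 4 cells with both genes and 82 with neither, the shares of these groups were 59.4% and 0.861%. At E14.5 and E16.5, 0 cells held a Y-linked UMI. The lack of cells with both Lefty genes there cannot be told apart from this lack of cells with Y-linked UMIs. The cells with both Lefty genes thus went against the female label in most of their number, and they are described below with and without Y-linked UMIs.

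**Figure D1:**
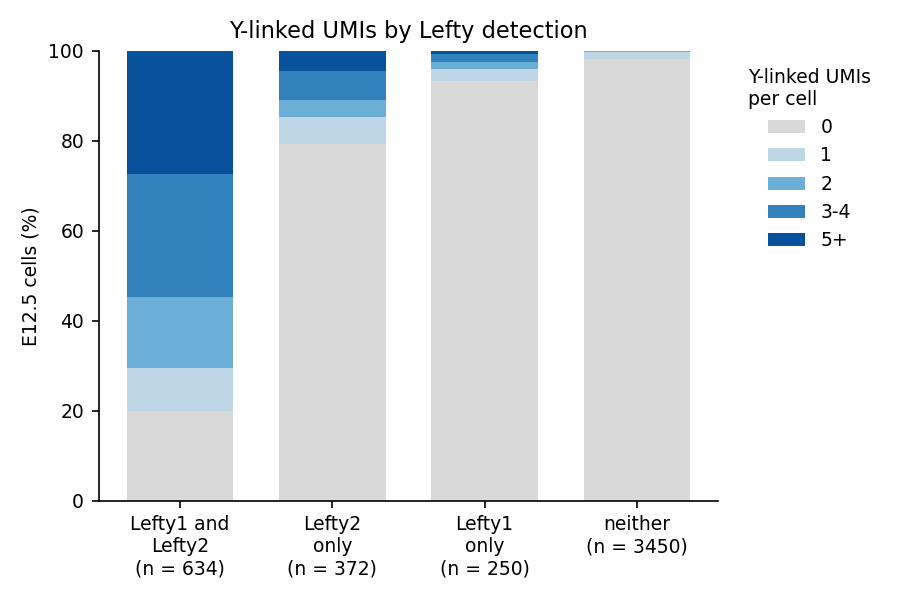
Stacked bars give the percentage of E12.5 cells with 0, 1, 2, 3 to 4 or at least 5 Y-linked UMIs, for 634 cells with both Lefty genes, 372 with Lefty2 only, 250 with Lefty1 only and 3450 with neither. Cells with no Y-linked UMI made up 19.9% of the first group and 98.1% of the last.

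Read from the other side, 521 E12.5 cells held at least 2 Y-linked UMIs, and 447 of them, 85.8% (82.5 to 88.7%), held both Lefty genes. Of the rest, 55 held Lefty2 alone, 10 Lefty1 alone and 9 neither. Eif2s3y, which encodes the Y copy of a translation initiation subunit, stood at 56.5 CPM (53.1 to 60.0) in cells with both genes and 0.520 (0.382 to 0.692) in cells with neither. Uba1y, the Y copy of a ubiquitin-activating enzyme, stood at 34.3 (31.6 to 37.0) and 0.398 (0.279 to 0.551). Ddx3y, an RNA helicase, had 123 UMIs against 5. Uty, the Y copy of the histone demethylase gene Kdm6a, had 86 UMIs and Zfy1, a zinc finger factor, 99 UMIs, against 1 UMI each in the larger group. All 5 genes pointed the same way. Xist, the RNA that coats the inactive X chromosome, did not separate the groups by share of cells, at 6.94% (5.09 to 9.21%) and 6.93% (6.10 to 7.83%). With cells thinned to 10000 UMIs, the shares were 3.02% and 3.65%. The level of Xist was lower in the cells with both Lefty genes, at 3.08 against 6.15 CPM. Of the 693 Xist UMIs in the E12.5 library, 274 lay in the 23 supporting-like cells described below. A UMI of Xist and one of a Y-linked gene occurred together in 29 of the 634 cells.

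X-linked RNA was lower in the cells with both Lefty genes. The X-linked share of a cell's UMIs had a median of 2.45% (quartiles 2.36 and 2.57%) in them and of 3.41% (3.19 and 3.62%) in cells with neither gene. Summed over cells, the share in the first group was 74.6% of that in the second. This was spread over the chromosome: of 153 X-linked genes of at least 20 CPM, 142 (92.8%) had a ratio below 1, with a median log2 ratio of -0.43, against 47.4% of 4720 autosomal genes with a median of 0.01. The X homologues of the Y-linked genes followed suit, with Uba1 at 142 against 203 CPM, Ddx3x at 91.5 against 132 and Eif2s3x at 68.1 against 94.2. Among the 50 genes at least 2-fold lower, 12% were X-linked, against 3.04% of the genes tested. They included Porcn, needed for WNT secretion (25 against 81.8 CPM), Dusp9, a phosphatase of MAP kinases (48.5 against 120), and Tmsb4x, which binds actin (30.5 against 76.1).

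**Figure D2:**
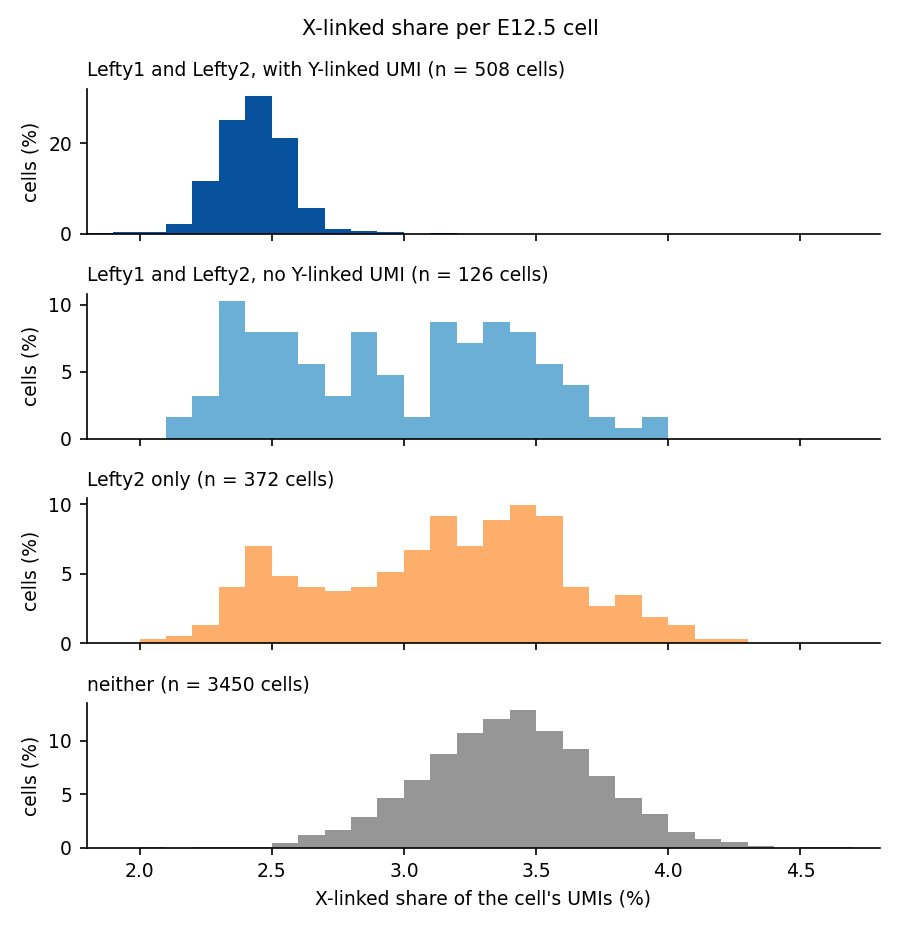
Histograms give the percentage of cells in bins of the X-linked share of a cell's UMIs (%), for cells with both Lefty genes with and without a Y-linked UMI, cells with Lefty2 only and cells with neither gene. The cells with a Y-linked UMI gather around a median of 2.43%, those with neither gene around 3.41%, and the 126 cells with both Lefty genes but no Y-linked UMI spread over both ranges.

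The 126 cells with both Lefty genes and no Y-linked UMI were not uniform in X-linked share. Their median was 2.93%, with quartiles of 2.53 and 3.37%. Limits were set after these values were seen: a share of at most 2.61% (95th percentile of the cells with both genes and at least 2 Y-linked UMIs) was called X-low, and one of at least 2.87% (5th percentile of the cells with neither gene and no Y-linked UMI) X-high. By these limits 39 of the 126 cells were X-low, 70 X-high and 17 in between. Of the 3385 cells with neither gene and no Y-linked UMI, 21 were X-low. The 9 cells with neither gene and at least 2 Y-linked UMIs were all X-low, whereas 49 of the 56 with a single Y-linked UMI were X-high. Single Y-linked UMIs in cells with neither Lefty gene therefore came mostly with a high X-linked share.

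The cells were germ cells by their markers. All 8 listed germ cell markers were found in at least 10% of them, and the list summed to 3127 CPM, against 3211 in cells with neither gene. Pou5f1, the pluripotency factor behind the sort, stood at 666 against 678 CPM, the RNA-binding protein gene Dazl at 438 against 468 and the helicase gene Ddx4 at 123 against 125. These levels were nearly alike, with the largest difference in the list at Tfap2c, an early germ cell factor (63.4 against 105 CPM). Markers of other cells were low in both groups and mostly lower in the cells with both Lefty genes. The 12 measured pregranulosa markers summed to 6.44 against 17.4 CPM, with 3 of them at 0 in the cells with both genes, the 5 Sertoli markers to 19.9 against 29.4, most of it from Aard, and the 2 interstitial markers to 0.541 against 0.664. The 3 endothelial markers summed to 76.9 against 80.0 CPM (mostly Pecam1 and Egfl7), the 3 mesonephric to 9.79 against 21.2, the 2 blood markers to 3.36 against 7.32 and the 4 erythroid to 0.487 against 0.299. The part of such RNA in the results was not tested, beyond leaving out cells that carried it. By a limit of 5 supporting cell markers, 23 E12.5 cells were supporting-like, and 1 of them held both Lefty genes. In those 23 cells, Lefty1 was found in 2 cells, Lefty2 in 2 and Nodal in 0 (a limit of 3 UMIs allows 7.89 CPM). Xist was found in 23 of them and Y-linked UMIs in 1, at a median depth of 13914 UMIs. These cells were not free of germ cell RNA. The 8 germ cell markers summed to 1018 CPM in them, and 82.6% of them held some.

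Across all genes the groups were much alike. With a minimum level of 20 CPM in either group, 5027 genes were compared: 17 (0.338%) were at least 2-fold higher in the cells with both Lefty genes and 50 (0.995%) at least 2-fold lower, around a median log2 ratio of 0.01. At a minimum of 5 CPM these counts were 80 (0.952%) and 169 (2.01%) of 8402 genes, and at 100 CPM 1 (0.0644%) and 7 (0.451%) of 1552. Eif2s3y and Uba1y were among the 3 genes of largest ratio upward, and the 3 of largest ratio downward were Id1, Phlda2 and Slc22a18. Genes were also ranked by the difference, in either direction, in the share of thinned cells with a UMI (630 against 3368 cells). The leading 5 included Id1 (15.1% against 67.6%), Phlda2 (49.7% against 98.5%) and the growth factor gene Mdk (44.1% against 85.1%), all found less often in cells with both Lefty genes. Eif2s3y (38.1% against 0.505%), also among the 5, was found more often.

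**Figure D3:**
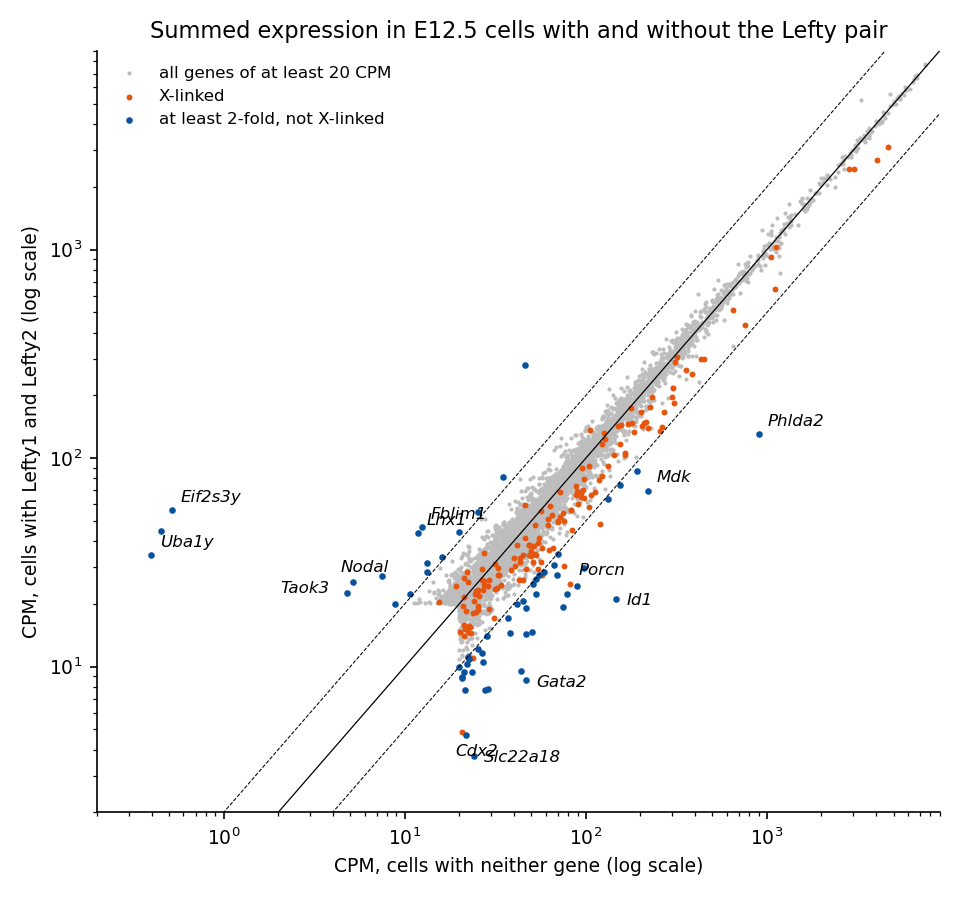
Each point is 1 of the 5027 genes that reached 20 CPM in either group, placed by its level in cells with neither Lefty gene and in cells with both (CPM of summed UMIs, log axes), with X-linked genes in orange and dashed lines at 2-fold. Most genes lie along the diagonal, Eif2s3y and Uba1y stand far above it, Phlda2 and Id1 far below, and the X-linked genes run just under it.

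Within the NODAL pathway, the ligand came first. Nodal RNA was found in 48.1% of the cells with both Lefty genes and in 12% of those with neither. Its level was 25.5 CPM (23.2 to 27.9) against 5.19 (4.73 to 5.68), a log2 ratio of 2.30 (2.11 to 2.48). Other genes of ligands and their processing were not higher: Gdf3, a related ligand gene, stood at 59.3 against 62.9 CPM, and the convertases Furin and Pcsk6, which cut the NODAL precursor, at 6.71 against 13.3 and 0.866 against 2.82. Inhbb, an activin subunit, had 0 UMIs against 14.

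Among receptor genes, only the co-receptor Tdgf1 of the 6 measured was at least 2-fold higher, at 11.9 CPM (10.3 to 13.5) against 1.99 (1.71 to 2.30), with a log2 ratio of 2.57 (2.28 to 2.87). It was found in 27.8% of cells against 4.93%. The related co-receptor gene Cfc1 pointed the other way, at 1.24 against 5.74 CPM. The type II receptor gene Acvr2b stood at 40.6 against 41.1, the type I receptor genes Tgfbr1 at 10.8 against 11.5 and Acvr1b at 2.76 against 3.71, and Acvr2a at 2.0 against 2.62. The transducers were also near even or lower: Smad2 at 44.9 against 52.0, Smad4 at 17.2 against 18.8, Trim33 at 31.7 against 37.3, Wwtr1 at 8.17 against 7.70, Foxh1 at 1.08 against 1.28 and Smad3 at 1.03 against 2.61. The ligand and its co-receptor were thus the members upstream of the SMADs that were higher.

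Lhx1 and Otx2, targets of the pathway, were higher. Lhx1 stood at 43.8 against 11.8 CPM, with a log2 ratio of 1.89 (1.75 to 2.02), and Otx2, a head and anterior homeobox gene, at 6.87 against 1.32 (2.38, 2.01 to 2.76). Of the other listed targets, Mixl1, Gsc, Foxa2 and Sox17 were below 1 CPM in both groups. Of the listed inhibitors and feedback genes of the pathway, 5 reached 20 CPM, all with ratios above 1 and 0 past 2-fold. They were Ski (25.5 against 14.3 CPM), Smad7 (30.7 against 22.4), Ppm1a (40.9 against 34.2), Skil (35.8 against 33.7) and Tgif2 (108 against 106). The log2 intervals of Skil (-0.04 to 0.21) and Tgif2 (-0.05 to 0.09) reached below 0, and 47.4% of autosomal genes compared had ratios below 1. Below 20 CPM, Pmepa1, a feedback inhibitor of SMAD signalling, stood at 6.82 against 0.918 CPM (2.89, 2.48 to 3.31) and Tgif1 at 17.1 against 11.9. Other inhibitors below it were lower or near even, with Dact2 at 8.06 against 10.1 CPM, Smurf2 at 5.20 against 6.22, Dand5 at 3.14 against 4.26 and Smurf1 at 3.52 against 3.64.

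A neighbour of the selecting genes on chromosome 1 was higher as well. Lefty2 (180893108 to 180899103), Lefty1 (180935022 to 180938400) and Tmem63a (180942344 to 180975112) lie in this order on the plus strand in GENCODE M21 (GRCm38). Tmem63a, an ion channel gene just beyond Lefty1, stood at 8.33 against 1.24 CPM (2.75, 2.39 to 3.11). The difference did not run far along the chromosome. Sde2, before Lefty2, had a log2 ratio of 0.36, and Parp1, Acbd3, H3f3a, Nvl, Cnih4 and Wdr26, within 500 kb, had ratios between -0.17 (Wdr26) and 0.20 (H3f3a).

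Outside the pathway and the Y chromosome, genes of large ratio included Taok3, a kinase (22.6 against 4.78 CPM), Fblim1, which links filamin to adhesion sites (46.7 against 12.4), Slc7a7, an amino acid transporter (27.1 against 7.45), and Igsf3, an immunoglobulin-domain protein (31.4 against 13.3). These lay on chromosomes 5, 4, 14 and 3. Nr0b1, an X-linked nuclear receptor gene, was below 20 CPM in both groups and went against the trend of its chromosome, at 16.3 against 8.09 CPM. Dppa5a, an RNA-binding protein of pluripotent and germ cells, stood at 5247 against 3317 CPM.

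Many genes of the BMP, retinoic acid and WNT response were lower. Of 10 listed genes at 20 CPM or more, 6 were at least 2-fold lower, beside 0.995% of all genes, and 0 higher, with a median log2 ratio of -1.84 beside 0.01 over all genes. Id1, a direct BMP target, was found in 30.4% of the cells with both Lefty genes and 88.2% of those with neither, at 21.2 CPM (19.1 to 23.4) against 147 (145 to 150), a log2 ratio of -2.80 (-2.95 to -2.65). Id2 stood at 24.5 against 89.8 CPM, the homeobox gene Msx2 at 19.4 against 74.5, and Gata2 at 8.60 against 46.5. Zglp1, a GATA-like factor of the female germ cell program, stood at 22.4 against 78.3, and the homeobox gene Cdx2 at 4.71 against 21.7. These 6 genes were the ones past 2-fold. Id3 was lower by less, at 344 against 649 CPM, and Msx1 and Axin2, which did not reach 20 CPM, stood at 3.46 against 12.6 and 7.41 against 15.7. Lef1, a transcription factor of the WNT pathway, stood at 48.1 against 53.3 CPM and the homeobox gene Rhox5 at 1029 against 1117. Sp5, a WNT target of low level, pointed the other way, at 4.17 against 2.04 CPM (1.03, 0.63 to 1.42). Stra8, the gene induced by retinoic acid at meiotic entry, had 2 UMIs in the 634 cells and 367 in the 3450, a log2 ratio of -5.23 (-8.28 to -3.37), and the cohesin gene Rec8 stood at 2.60 against 10.1 CPM. Meiotic genes already present in both groups differed less: Sycp3 at 33.9 against 41.8, Smc1b at 97.3 against 150 and Syce2 at 393 against 470.

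A pair of neighbours on chromosome 7 was also low. Phlda2, an imprinted gene of growth control (143501545 to 143503150, minus strand, GRCm38), had 130 CPM (125 to 135) against 902 (896 to 908), a log2 ratio of -2.79 (-2.85 to -2.73). It was found in 75.6% of the cells with both Lefty genes and 99.3% of those with neither. Slc22a18 beside it, an imprinted transporter gene, stood at 3.73 against 24.0 CPM, and Cdkn1c, an imprinted inhibitor of the cell cycle further along, at 20.6 against 45.0. Kcnq1ot1, the noncoding RNA of the same imprinted domain, stood at 18.6 against 20.7, and Nap1l4 and Cars on the other side at 123 against 127 and 59.4 against 43.5. Of the 7 listed imprinted genes at 20 CPM or more, 3 were at least 2-fold lower (Phlda2, Cdkn1c and Meg3), beside 0.995% of all genes. Peg3 and Snrpn were near even, at 121 against 131 and 198 against 172 CPM. Calcoco2, an autophagy receptor gene, and Sct, a peptide hormone gene, completed the lower end with 9.52 against 44.1 and 7.74 against 27.7, as did Abhd11os, annotated as a transcribed pseudogene, with 7.85 against 28.7.

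Most other lists had few or no genes past 2-fold. Of 21 pluripotency and early germ cell genes, 0 were past 2-fold either way, with a median log2 ratio of -0.13; Nanog stood at 60.1 against 62.2 CPM, Sox2 at 170 against 213 and Utf1 at 1242 against 939. S phase genes had a median of -0.08 (0 of 18 past 2-fold) and genes of G2 and mitosis 0.08 (0 of 20), with Ccnb1, the mitotic cyclin, at 419 against 379 CPM and Aurkb, a mitotic kinase, at 70.9 against 51.7. The cells with both Lefty genes thus carried the RNA of dividing cells at about the level of the others. Glycolysis genes had a median of 0.30, beside 0.01 over all genes, with 0 of 15 past 2-fold. Among them were Gapdh (1427 against 1141 CPM) and Pkm (1314 against 1067), while Ldha stood at 28.5 against 52.0. Of the male fetal germ line list, 2 of 6 genes were at least 2-fold higher, Nodal among them, beside 0.338% of all genes, while 3 of the 6 had ratios below 1 and the median log2 ratio was 0.02. In the immediate-early list, Fos stood at 10.6 against 27.2 CPM, whereas Ier2 and Jund stood at 109 against 110 and 226 against 230.

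The contrast was then taken apart by Y-linked UMIs and X-linked share. The 508 cells with a Y-linked UMI and the 39 X-low cells without one had similar levels of the genes below. For Nodal, Taok3, Tdgf1 and Lhx1, the 70 X-high cells were lower than both. X-high cells also held fewer Lefty UMIs per cell, with medians of 1 for Lefty1 and 1 for Lefty2. These medians were 3 and 6 in the cells with a Y-linked UMI and 3 and 5 in the X-low cells. The part of this difference in the levels here and below was not tested. Nodal stood at 27.1, 28.8 and 12.9 CPM in these 3 groups and at 5.17 in the 3385 cells with neither gene and no Y-linked UMI. Taok3 stood at 24.4, 27.8 and 7.96 against 4.78 CPM. For Tdgf1 the levels were 13, 11.3 and 3.98 against 1.97, and for Lhx1 47.9, 41.1 and 12.9 against 11.8. X-high cells were thus near the cells with neither gene for Lhx1, and above them for Nodal (log2 ratio 1.32, 0.69 to 1.89). The interval of Tdgf1 in them reached below 0 (1.01, -0.22 to 2.03).

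Against the same cells, the 508 with a Y-linked UMI had 21 genes (0.416%) higher and 68 (1.35%) lower, and the 126 without had 8 (0.16%) and 11 (0.22%). Lower genes divided in the same way. Id1 stood at 10.9, 9.25 and 97.0 CPM in the cells with a Y-linked UMI, the X-low and the X-high cells, against 147 with neither gene, and Phlda2 at 69.3, 66.8 and 528 against 904. Msx2 stood at 12.3, 10.3 and 67.7 against 74.5, and Gata2 at 5.66, 6.17 and 29.8 against 46.9. Cdx2 was higher in X-high cells than in cells with neither gene, at 30.8 (23.7 to 39.5) against 21.6 (20.7 to 22.6), and 1.33 and 1.03 in the other 2 groups. Of the 50 genes lower in all cells with both Lefty genes, 48 were at least 2-fold lower in X-low cells and 0 in X-high cells. Of the 17 higher genes, 16 and 6 were at least 2-fold higher. These genes were called in sums that held the X-low and X-high cells, against nearly the same other cells. Part of this overlap was thus built in, and no share over all genes is given for X-low cells. Over all 5011 genes compared at 20 CPM, X-high cells had 9 (0.18%) genes higher and 2 (0.0399%) lower than cells with neither gene and no Y-linked UMI. Fblim1 was among the higher ones, at 32.8 CPM (25.4 to 41.8) against 12.4. Dazl, a marker shared by all groups, was 282 CPM (259 to 306) in X-high cells against 468.

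**Figure D4:**
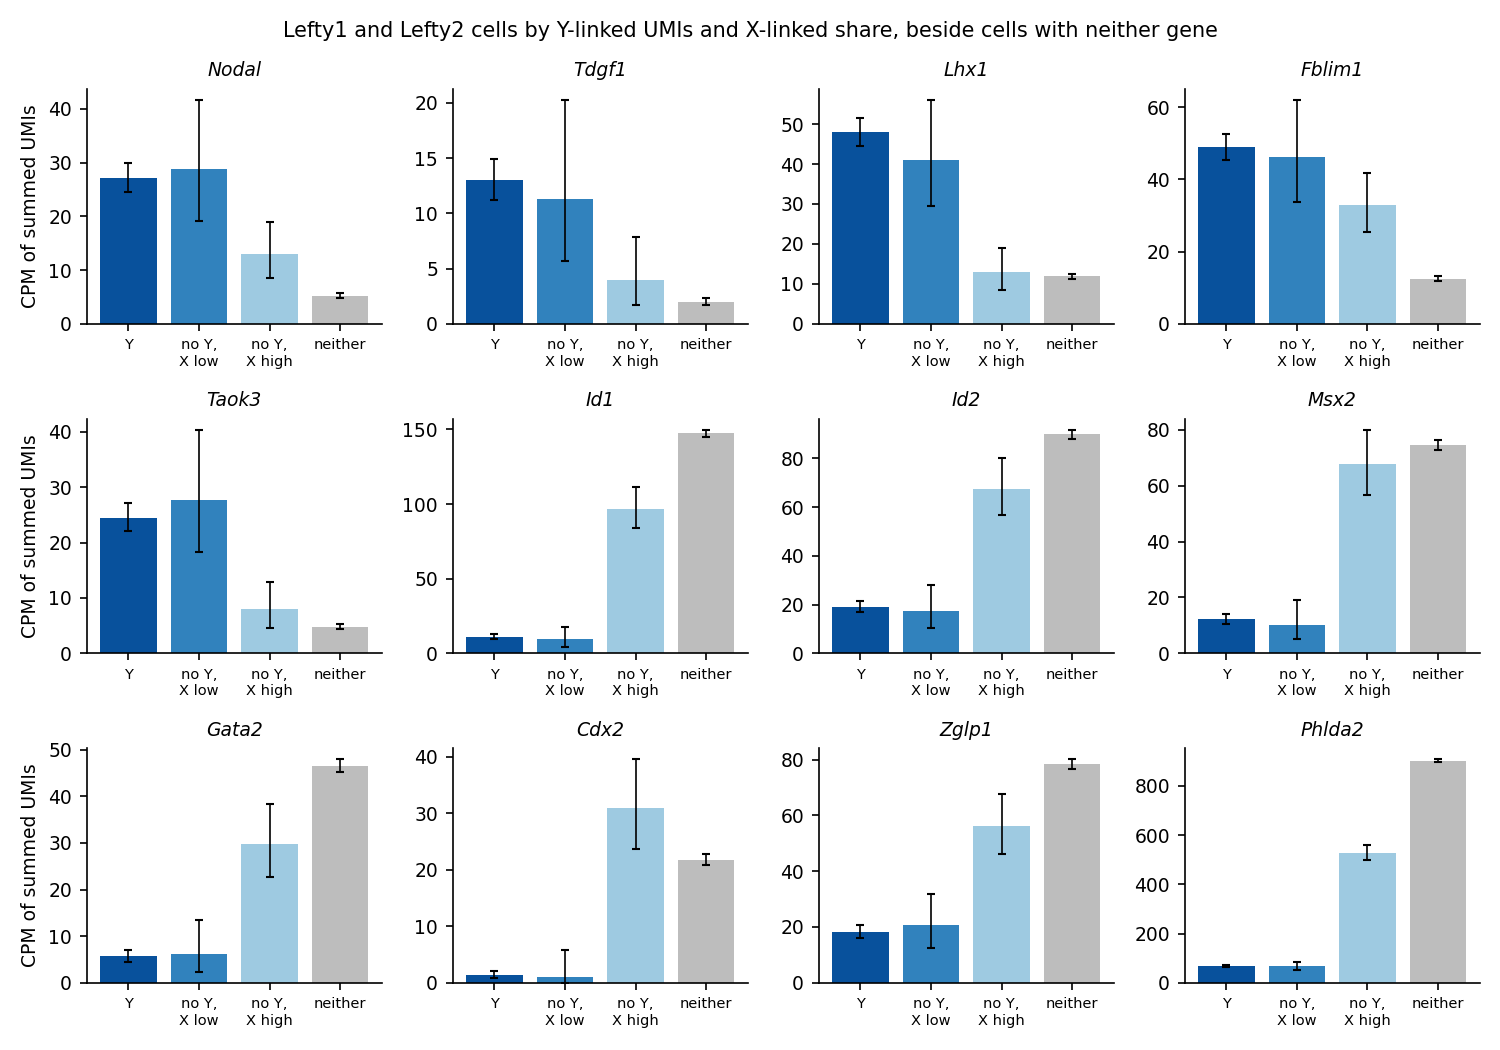
Bars give the level (CPM of summed UMIs, each panel with its own axis from 0) of 12 genes in cells with both Lefty genes, split into 508 with a Y-linked UMI (Y), 39 without and with a low X-linked share, and 70 without and with a high X-linked share, beside all 3450 cells with neither gene; error bars are 95% Poisson intervals. The first and second bars stand close together in every panel, and Lhx1 in the third bar is near the cells with neither gene, while Fblim1 is not.

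When both sides held at least 2 Y-linked UMIs, few genes were past 2-fold. The 447 cells with both genes were set against the 74 without the pair, of which 55 held Lefty2 alone, 10 Lefty1 alone and 9 neither. Most cells on the second side thus held RNA of 1 Lefty gene, unlike the cells with neither gene used above. Of 4949 genes, 2 (0.0404%) were at least 2-fold higher and 2 (0.0404%) lower, and they were named after their values were seen: Xlr3c (20.2 against 7.61 CPM) and Terf2ip (23.0 against 9.78) upward, Pbld2 (48.1 against 115) and Arhgef40 (25.5 against 91.8) downward. Nodal stood at 27.1 against 21.7 CPM, with a log2 ratio of 0.32 (-0.15 to 0.83), Lhx1 at 48.2 against 41.3 (0.22, -0.12 to 0.59), Tdgf1 at 12.9 against 12.5 (0.05, -0.58 to 0.74), and Fblim1 at 48.4 against 34.8 (0.48, 0.10 to 0.87). Id1 stood at 10.3 against 17.9 (-0.80, -1.36 to -0.20) and Phlda2 at 65.1 against 102 (-0.65, -0.88 to -0.41). Of the 17 genes higher and the 50 lower in the full comparison, 0 and 1 were past 2-fold here. The 74 cells were slightly shallower, with a median of 25384 UMIs against 29846.

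The cells are next described by their number of Lefty UMIs, which the rule used, so that no test or relation is drawn from it. Cells were grouped by the sum of both genes into 2 to 4 UMIs (138 cells), 5 to 8 (190), 9 to 12 (131) and 13 or more (175). Nodal stood at 17.8, 23.8, 27.1 and 31.5 CPM in these groups and Tdgf1 at 6.02, 9.47, 11.2 and 18.8. Lhx1 stood at 22.5, 43.3, 45.3 and 58.2 CPM and Fblim1 at 38.7, 51.1, 50.5 and 45.3. Nodal and Tdgf1 were highest in the last group, while the intervals of Fblim1 overlapped from 5 UMIs upward. Id1 stood at 52.6, 16.7, 12.5 and 9.58 CPM and Phlda2 at 354, 86.5, 71.4 and 57.1, so that most of their remaining RNA lay in the first group. The share of cells with a Y-linked UMI was 42.8%, 88.9%, 88.5% and 93.7%, and median depth 27804, 27812, 29129 and 30260 UMIs. The part of the share of cells with Y-linked UMIs, and of depth, in these differences was not tested.

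**Figure D5:**
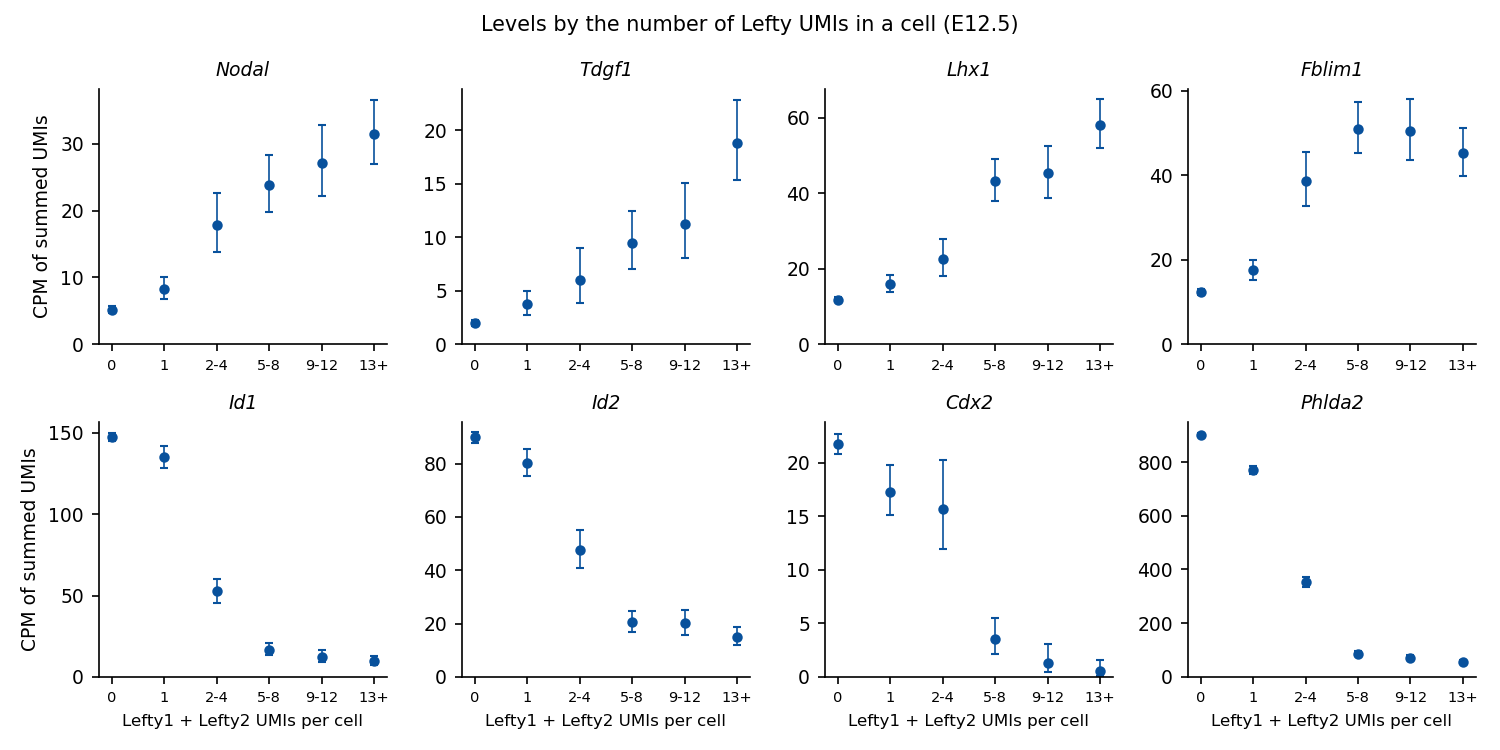
Points give the level (CPM of summed UMIs, axes from 0) of 8 genes in E12.5 cells grouped by their summed Lefty1 and Lefty2 UMIs, with 95% Poisson intervals; 0 is the 3450 cells with neither gene, 1 the 463 cells with 1 UMI of 1 gene, and the other 4 groups are cells with both genes. From 1 UMI to 5 to 8 UMIs, Nodal, Tdgf1, Lhx1 and Fblim1 stand higher and Id1, Id2, Cdx2 and Phlda2 lower.

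At the edge of the rule, the 39 cells with 1 UMI of each gene had 14.1 CPM of Nodal (7.88 to 23.2) and 34.7 of Fblim1 (24.4 to 47.8). The 463 cells with 1 UMI of 1 gene had 8.29 (6.77 to 10.0) and 17.5 (15.3 to 20). Id1 stood at 68.5 (53.7 to 86.1) and 135 (129 to 142) CPM. A Y-linked UMI was found in 5 of the 39 cells and in 21 of the 463, and 29 of the 34 without one inside the rule were X-high. These 29 are part of the 70 X-high cells described above.

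Nodal and Tdgf1 were at or near 0 in the later libraries, which held 0 cells with a Y-linked UMI. Age, library and the lack of such cells cannot be told apart. Nodal had 4 UMIs in 9075 cells at E14.5 and 0 at E16.5, and Tdgf1 0 and 3. Lhx1 stood at 2.02 CPM at E14.5 and 1.20 at E16.5, below the 11.8 of the E12.5 cells with neither Lefty gene. Id1, low in the cells with both genes, stood at 278 (275 to 282) and 395 (390 to 400). Stra8 stood at 1440 (1432 to 1447) and 273 (269.5 to 277) CPM.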

How the data were processed

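Each of the 3 ages gave 1 library of single-cell RNA, made with 10x Genomics droplets and version 2 chemistry for 3' ends per the labels' protocols. The submitters' processing notes name FastQC, Cell Ranger 2.0.0 and mm10 (GRCm38). Settings and cell filters: not given in the sources consulted. The deposited table holds natural log values of 1 plus the UMIs of a gene, scaled to 10000 per cell, for 14133 genes in 19144 cells. Undoing the log gave 100.0% of values within 0.01 of a whole UMI, and these UMIs were summed per group.

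Libraries shared 58, 43 and 72 cell barcodes (E12.5 with E14.5, E12.5 with E16.5, E14.5 with E16.5). No cell was removed and no doublet caller was run, so doublets may remain. A gene was compared where either group reached 20 CPM, a group at 0 being set to 3 counts in a ratio. The code was tested on simulated data. Cells, members and the 30 gene lists were chosen with earlier results of these data known, and support nothing by their choice. Named genes were the 10 of largest ratio in each direction (without Lefty1, Lefty2, mitochondrial, ribosomal protein, haemoglobin, Gm-number and Rik genes), the measured members of the NODAL, Y-linked and X inactivation lists, and in each other list the 3 of highest CPM and the 1 of largest ratio in either direction among those of at least 10 CPM, and Pou5f1, Dazl and Ddx4. Genes of the Lefty and Phlda2 loci, and Mdk, Zglp1, Msx1, Axin2, Stra8, Sox2, Nanog, Eif2s3x, Meg3, Tmsb4x, Porcn and Dusp9, the genes so marked in the text, and the Y and X classes of cells were added after their values were seen. Some genes that met these rules are counted but not reported here. Alternatives are given in the closing section. Python 3.11.15, numpy 2.4.6, scipy 1.17.1 and pandas 2.3.3 were used, with positions from GENCODE M21.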

Additional observations from a re-analysis of the deposited data

How the results depend on the processing

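No paired analysis was possible because each age was 1 library. The counts of 17 higher and 50 lower genes became 80 and 169 at a minimum of 5 CPM, and 1 and 7 at a minimum of 100 CPM, where fewer genes are tested. After seeing the data, they were also taken over X-high cells without Y-linked UMIs (9 and 2) and between cells that all held at least 2 Y-linked UMIs (2 and 2), with fewer cells in each sum. The share of cells with a Y-linked UMI was 59.4% in thinned cells, 70.5% at a minimum of 2 UMIs and 90.1% where at least 2 UMIs of each Lefty gene were asked for. The share with Xist was 3.02% in thinned cells and 1.74% at 2 UMIs. Without Xist and the 10 most abundant X-linked genes, the ratio of X-linked shares was 75.7%. Of 162 named genes, 56 were past 2-fold, but many were named for their ratio. Over all genes of at least 20 CPM, 0.338% were past 2-fold higher and 0.995% lower. Of the 56, 0 changed direction under the 10 alternatives for single genes. The alternatives reused cells of the same 2 groups, so a kept direction is little support. Those alternatives did not include the comparisons of X-high cells or of cells with at least 2 Y-linked UMIs. In X-high cells, 16 of the 17 higher and 36 of the 50 lower genes kept their direction. Between cells with at least 2 Y-linked UMIs, 15 of the 17 and 37 of the 50 did. The 17 and 50 genes were called in sums that held these same cells with both Lefty genes, so these counts support nothing by themselves. Over all genes tested in the full comparison, the median log2 ratio was 0.0005 and 0.02 in these 2 comparisons. Scaling by TMM or by the median of ratios shifted all genes by -0.03 and -0.04 (log2). Against the 65 cells with neither Lefty gene but a Y-linked UMI, 48 of the 56 genes were still past 2-fold in the same direction. However, 56 of these 65 cells had a single Y-linked UMI, and 49 of those were X-high. Most of them were thus like cells without Y-linked UMIs in X-linked share. Where both sides held at least 2 Y-linked UMIs, 0 of the 17 higher and 1 of the 50 lower genes were past 2-fold. The difference of mean natural log values gives no count of 2-fold genes.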
